A study of Mus musculus with 2 samples.

Results

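The kinesin genes are 39 of the 21951 protein_coding genes of GENCODE mouse release M21, chosen by symbol as Kif followed by a digit, without the genes whose symbols begin with Kifap or Kifc. The rule takes in Kif1bp, which encodes a binding partner of the KIF1 motors and no motor, and leaves out the C-terminal motors of the Kifc genes and the mitotic motor Cenpe. An m6A site was assigned to a kinesin gene when it lay inside the gene's interval on the same strand. This gave 535 positions, of which 230 were listed in the cerebellum and 456 in the cerebrum, with 151 listed in both. They are a small share of the 79355 cerebellum and 188295 cerebrum sites of the series.

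The sites come from GLORI, in which glyoxal and nitrite deaminate unmethylated adenosines so that they are read as G, while m6A is still read as A. There was 1 cerebellum and 1 cerebrum library, both of poly(A)+ RNA from a female F1r hybrid at P0, the day of birth. F1r mice have a C57 (C57BL/6J) mother and a PWK (PWK/PhJ) father, and both libraries share cross, sex, age and the GLORI treatment. The authors listed a position when its methylation rate was above 0.1 and its read count above 8, and the lists hold neither rates nor counts, which leaves the depth at each site unknown. A position that is not listed can therefore be unmethylated, not expressed or too thinly covered, and in whole tissue fewer cells of a type cannot be told apart from less RNA per cell. Each tissue had 1 library, so differences between the tissues have no replicate check and were not tested. Ranges in brackets after a share are 95% Wilson intervals. They take in the counting error over sites alone and treat sites of one mRNA as independent, which they are not. Where 0 adenosines were listed, the share said to be allowed is the one that 3 would give, which is tighter than the Wilson limit.

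Kinesins are motors that convert ATP hydrolysis into movement along microtubules through a conserved motor domain. In neurons, the kinesin-1 (Kif5), kinesin-2 (Kif3) and kinesin-3 (Kif1, Kif13, Kif16b) families carry vesicles, organelles and protein complexes into axons and dendrites, whereas mitotic kinesins build the spindle, move chromosomes and complete cytokinesis. m6A is placed by the METTL3 and METTL14 methyltransferase in DRACH sequences, where D is A, G or T, R is A or G and H is A, C or T. It is known to be concentrated in long internal exons, around stop codons and in 3′ UTRs, and to be sparse close to splice junctions. For description, 15 members were grouped as transport kinesins (Kif1a, Kif1b, Kif1c, Kif3a, Kif3b, Kif3c, Kif5a, Kif5b, Kif5c, Kif13a, Kif13b, Kif16b, Kif17, Kif21a and Kif21b), 11 as mitotic kinesins (Kif2c, Kif4, Kif11, Kif14, Kif15, Kif18a, Kif18b, Kif20a, Kif20b, Kif22 and Kif23) and 13 as other.

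The sites below are, for 7 of the 10 members with the most exonic DRACH sites, the site listed in both libraries that lies nearest to the stop codon of the reference isoform, which is the longest one that has a whole coding sequence and UTRs at either end. They show what a kinesin site looks like, with the DRACH 5-mer in capitals and 8 nt on either side of it, 5′ to 3′ on the gene's strand in GRCm38, the assembly that mm10 names.
Kif1b, chr4:149179594-149179614, minus strand, 3′ UTR: ttgatcaaAGACTtgtagctt
Kif26b, chr1:178932261-178932281, plus strand, 3′ UTR: ctcccccaGGACTtcagcagg
Kif3b, chr2:153330218-153330238, plus strand, 3′ UTR: tgcagagaTGACTtgagccta
Kif21b, chr1:136175336-136175356, plus strand, 3′ UTR: ggtgctgtGGACTcagctgct
Kif3c, chr12:3403165-3403185, plus strand, 3′ UTR: ctagggagAGACTtaggcagg
Kif5c, chr2:49771180-49771200, plus strand, 3′ UTR: catgaaaaGGACTgtagtagt
Kif13a, chr13:46752249-46752269, minus strand, coding sequence: attttggaGGACCattccttc

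These sites lay from 199 nt before to 1255 nt after the last base of the stop codon, at 33 nt in Kif5c, 43 nt in Kif26b, 73 nt in Kif3b, 290 nt in Kif3c, 1164 nt in Kif1b and 1255 nt in Kif21b. The Kif13a site was the coding one, in exon 37 of 38, and the other sites were in the last exon. Of the remaining leading members, Kif26a had no site in both libraries with this motif, the Kif1bp sites were on another isoform than the reference one, and Kif13b had no such isoform to serve as reference.

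All 15 transport kinesins had a site of some kind in each library, while of the 11 mitotic kinesins 1 had one in the cerebellum and 8 in the cerebrum. At the canonical motif in exons the mitotic kinesins had 1 site in all. At least 1 site was listed in 20 of the 39 members in the cerebellum and in 30 in the cerebrum, against 41.2% and 57.4% of all coding genes. Exonic DRACH sites were listed in 15 members in the cerebellum and 20 in the cerebrum, or 38.5% and 51.3%, against 34.3% and 44.2% of all coding genes. By group, an exonic DRACH site was listed in the cerebellum in 12 of 15 transport, 0 of 11 mitotic and 3 of 13 other kinesins, and in the cerebrum in 13, 1 and 6. The 9 members without a site in either library were the mitotic Kif14, Kif18b and Kif23 together with Kif2b, Kif9, Kif12, Kif19a, Kif24 and Kif28.

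**Figure D1:**
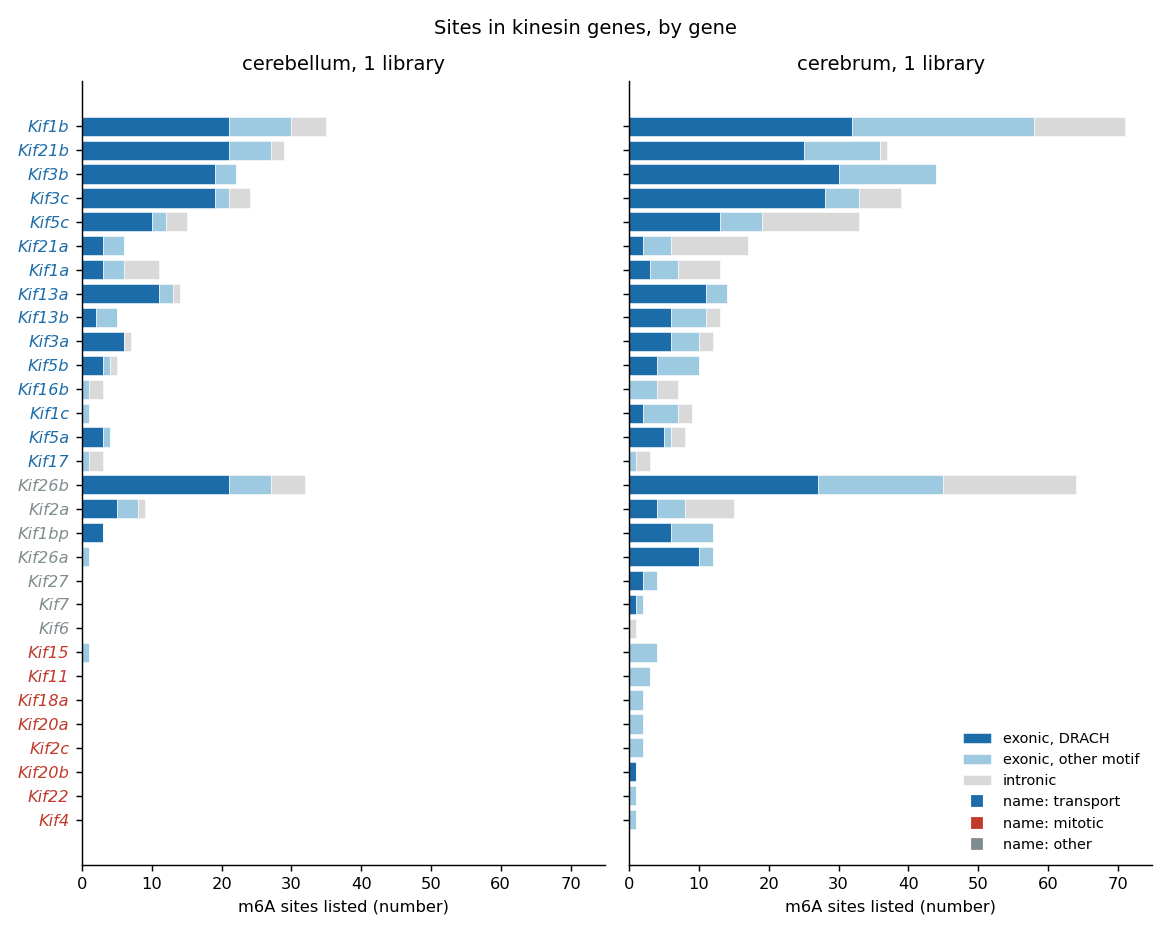
Number of listed m6A sites (horizontal axis) in each kinesin gene with at least 1 site (vertical axis), in the cerebellum library (left) and the cerebrum library (right). Bars stack exonic DRACH sites, exonic sites at other motifs and intronic sites, and name colours give the group; the longest bars are Kif1b, with 35 and 71 sites, and Kif26b, with 32 and 64, and all mitotic kinesins have at most 4.

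The exonic DRACH sites were concentrated in a few genes. Kif1b, Kif26b, Kif3b, Kif21b and Kif3c held 101 of the 150 exonic DRACH sites in the cerebellum and 142 of the 218 in the cerebrum, or 67.3% and 65.1%. The 10 leading members, which add Kif5c, Kif13a, Kif26a, Kif13b and Kif1bp, held 84.7% and 86.2%.

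To set the sites against the number of positions where they could lie, the DRACH adenosines of the reference isoforms were counted, and the share of them that was listed was taken for each member. Over the 38 members with a reference isoform, 136 of 4406 DRACH adenosines were listed in the cerebellum (3.09%, 2.62 to 3.64), with 191 in the cerebrum (4.33%, 3.77 to 4.98). Over the DRACH adenosines of all coding genes, 3.07% and 5.24% were listed. The family as a whole was therefore near the background in the cerebellum and below it in the cerebrum. The groups differed around that level. The transport kinesins had 110 of 1986 listed in the cerebellum (5.54%, 4.62 to 6.63), with 146 in the cerebrum (7.35%, 6.28 to 8.58). Some members carried these pooled shares, since 7 of the 14 transport kinesins with a reference isoform lay above the share of all coding genes in each library, with the whole interval above it in 6 and 3. The median transport member had 3.68% listed in the cerebellum and 5.21% in the cerebrum. No like count or median over all coding genes is given here, and 34.3% and 44.2% of them had any exonic DRACH site. These member counts therefore do not show whether the transport kinesins differ from other genes. The mitotic kinesins had 0 of 1131 in the cerebellum, which allows a share of up to 0.265%, and 1 in the cerebrum (0.0884%, 0.0156 to 0.499). The other kinesins had 26 of 1289 (2.02%) and 44 (3.41%), and without Kif26b these shares fell to 0.487% and 1.66%.

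The mitotic reference isoforms held a median of 93 DRACH adenosines, from 34 in Kif22 to 193 in Kif14, against a median of 137.5 in transport kinesins and 56 over all coding genes. Whether their mRNAs were covered by enough reads is not known from the lists. Of 8 genes that mark cycling cells, 0 had an exonic DRACH site in the cerebellum and 5 had one in the cerebrum, with 0 and 22 sites. Mki67, the gene of the Ki-67 proliferation antigen, had 14 of those 22. Counted the same way, 5 and 6 of 6 neuronal marker genes had an exonic DRACH site. With sites of any kind, 2 and 7 of the 8 cycling genes and all 6 neuronal genes in each library were listed. The part of cell number, expression and coverage in the difference between the groups was not tested.

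The 16 cerebrum sites of mitotic kinesins were all exonic, and 15 of them were not at DRACH. The exception was a GGACA in exon 13 of Kif20b, a motor of late mitosis, in a 288-nt coding exon on chromosome 19. Kif15, a spindle motor, had 4 sites in the cerebrum and 1 in the cerebellum, and the cerebellum site was also in the cerebrum list. Kif11, the motor that pushes spindle poles apart, had 3 sites in the cerebrum. Kif2c, Kif18a and Kif20a had 2 each, and Kif4 and Kif22 had 1 each. None of these had the canonical motif. Over all coding genes, 59.8% of the exonic cerebrum sites were at DRACH.

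**Figure D2:**
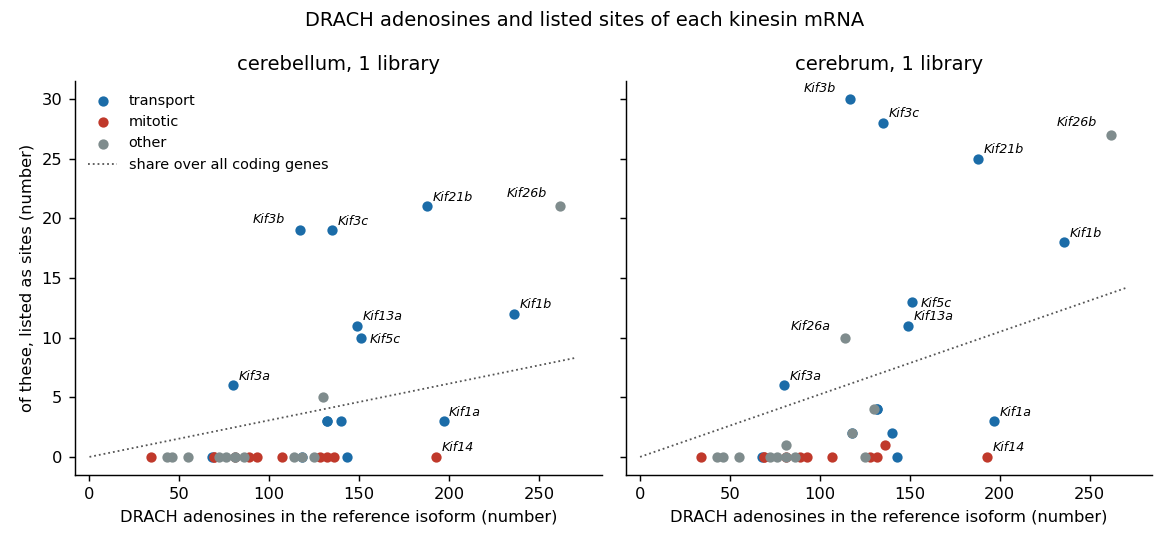
DRACH adenosines in the reference isoform of each kinesin gene (horizontal axis) against the number of them listed as sites (vertical axis), in the cerebellum (left) and cerebrum (right), with 1 point per gene coloured by group. The dotted line is the share over all coding genes, 3.07% and 5.24%; Kif3b, with 19 and 30 of 117 listed, and Kif3c, with 19 and 28 of 135, lie farthest above it for their motif number, and the mitotic genes lie on or next to the axis.

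Among the transport kinesins, members of one family differed in their listed shares. Kif3b, a motor subunit of heterotrimeric kinesin-2, had the highest share of all members, with 19 of 117 DRACH adenosines listed in the cerebellum (16.2%, 10.6 to 24) while 30 were in the cerebrum (25.6%, 18.6 to 34.2). Kif3c, an alternative partner of Kif3a, followed with 19 and 28 of 135 (14.1% and 20.7%). Kif3a, the common partner, had 6 of 80 in each library (7.5%, 3.48 to 15.4), the same 6 positions. The interval of Kif3a overlapped those of both partners in the cerebellum, and in the cerebrum it overlapped that of Kif3c (14.8 to 28.3) and lay below that of Kif3b.

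In the kinesin-3 family, Kif1b, a carrier of mitochondria and synaptic vesicle precursors, had 12 of 236 listed in the cerebellum (5.08%, 2.93 to 8.68), with 18 in the cerebrum (7.63%, 4.88 to 11.7). Kif1a, the axonal motor for synaptic vesicle precursors, had 3 of 197 in each library (1.52%, 0.519 to 4.38), again the same 3 positions. Kif1c had 0 and 2 of 118, and the 0 allows up to 2.54%. Kif13a, which carries endosomal cargo, had 11 of 149 in each library, with 10 in common, while Kif16b, an endosomal motor, had 0 of 143 in both, which allows up to 2.1%. Outside this family, Kif17, a homodimeric kinesin-2 that runs in dendrites, had 0 of 68 in both, which allows up to 4.41%.

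In kinesin-1, whose heavy chains are encoded by Kif5a, Kif5b and Kif5c, Kif5c had 10 of 151 listed in the cerebellum and 13 in the cerebrum, and the 10 were all among the 13. Kif5a and Kif5b each had 3 and 4 of 132. Between the kinesin-4 paralogues, Kif21b had 21 of 188 in the cerebellum (11.2%, 7.42 to 16.5), with 25 in the cerebrum, and Kif21a had 3 and 2 of 140 (2.14% and 1.43%). Each of these mRNAs had at least 1 exonic DRACH site in both libraries, so some of its RNA was covered in each, but the coverage along the rest of the mRNA is unknown.

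The reference isoform did not hold all sites of 3 leading members. Kif1b is transcribed into a long and a short isoform with separate last exons and cargo-binding tails. Of its 34 exonic DRACH sites, 20 lay on the 49-exon isoform of 1816 residues and 14 on the 21-exon isoform of 1150 residues, with none in common. In the last exon of the long isoform, of 4492 nt, the cerebellum list had 11 sites and the cerebrum list 16, with 10 shared. The 4750-nt last exon of the short isoform had 9 and 14, with all 9 cerebellum sites repeated in the cerebrum. Kif1bp had 3 and 6 DRACH sites, all in the 1414-nt last exon of the isoform of 617 residues, and 0 on its longest isoform, which ends in another exon. Kif13b had 2 and 6, and 2 and 5 of these lay in the 3587-nt last exon of an isoform with an incomplete start.

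By region, kinesin sites lay in 3′ UTRs more often than those of other genes. Of the 194 cerebellum sites on coding isoforms, 134 were in the 3′ UTR (69.1%, 62.3 to 75.2), and of the 339 cerebrum sites 211 were (62.2%, 57 to 67.2). Over all coding genes, the shares were 56.3% and 53.8%. The coding sequence held 27.3% and 33.9%, against 40.9% and 43%. Measured per DRACH adenosine, 8.11% of those in kinesin 3′ UTRs were listed in the cerebellum (6.75 to 9.72), with 10.5% in the cerebrum (8.94 to 12.3), against 4.01% and 6.65% over all coding genes. In the coding sequence, 0.803% (0.54 to 1.19) and 1.47% (1.1 to 1.97) were listed, against 2.48% and 4.39%. In the transport kinesins alone, the 3′ UTR shares were 12.2% and 16% and the coding shares 1.56% and 2.13%. The mitotic kinesins had 0 of 173 3′ UTR DRACH adenosines listed in each library, which allows up to 1.73%. In the other kinesins, the 3′ UTR shares were 4.34% (2.76 to 6.75) and 5.3% (3.53 to 7.9). A 3′ UTR share clearly above that of all coding genes was thus seen in the transport kinesins alone.

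A smaller share of kinesin sites than of all sites lay close to the stop codon. Of the 178 cerebellum sites on reference isoforms, 15 lay within 200 nt on either side of it (8.43%, 5.17 to 13.4), and of the 302 cerebrum sites 31 did (10.3%, 7.33 to 14.2). Over all coding genes, the shares were 20.1% and 18.8%. The listed 3′ UTR DRACH adenosines had a median distance of 1298.5 nt from the stop codon in the cerebellum and 1164 nt in the cerebrum, and 54.7% and 51.1% lay beyond 1000 nt. Of all 1307 DRACH adenosines in these 3′ UTRs, listed or not, 742 lay beyond 1000 nt, so the listed ones were not farther out than the motif. Per adenosine, 3.82% (2.25 to 6.43) of those within 200 nt of the stop codon were listed in the cerebellum and 3.03% (2.54 to 3.6) of those farther away, and in the cerebrum 5.88% and 4.21%. The values over all coding genes were 5.41% and 2.74% in the cerebellum and 9.26% and 4.67% in the cerebrum. Within 200 nt, the kinesin interval lay below the share of all genes in the cerebrum (3.84 to 8.91) and included it in the cerebellum. The median 3′ UTR of the transport kinesins was 2876 nt long and that of the mitotic kinesins 555 nt.

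Single genes differed in where their 3′ UTR sites lay. In Kif1b, all 17 listed 3′ UTR DRACH adenosines of the long isoform were beyond 1000 nt, as were 81 of its 96 listed or not. In Kif21b, 26 of 29 were beyond it, near the 64 of 78 listed or not. In Kif5c, 11 of 12 were within 1000 nt, where 20 of its 68 3′ UTR DRACH adenosines lay, and 10 DRACH sites fell in 1 stretch of at most 500 nt, from 332 to 724 nt after the stop codon, 8 of them in both libraries. Kif13a had 7 DRACH sites between 264 and 607 nt, every one in both libraries. Kif3a had 5 between 57 and 437 nt, again all in both, and Kif2a, a microtubule-depolymerising kinesin that limits axon branching, had 5 between 163 and 558 nt, 4 of them in both.

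**Figure D3:**
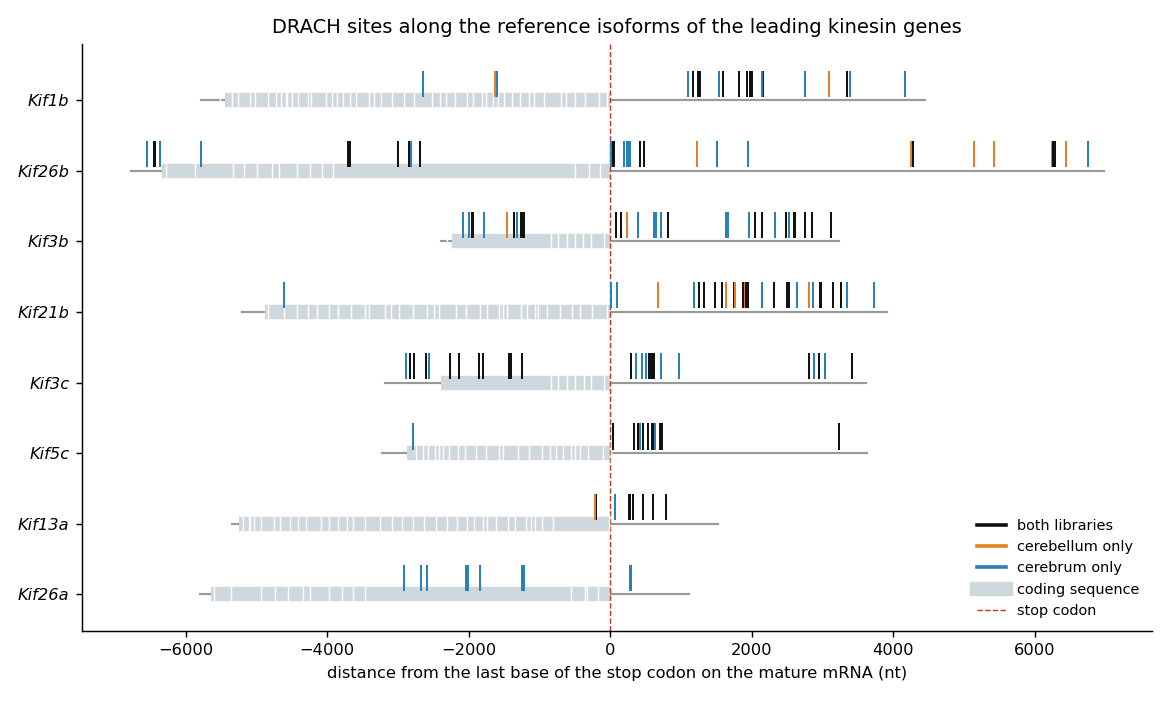
DRACH sites along the reference isoforms of the 8 leading kinesin genes that have such sites there, as distance in nt from the last base of the stop codon (horizontal axis), with the coding sequence as a thick bar, white gaps at exon junctions and UTRs as thin lines. Ticks are sites in both libraries (black), in the cerebellum alone (orange) or in the cerebrum alone (blue); most sites lie in the 3′ UTR, in some genes in part of it, as in Kif5c with 10 between 332 and 724 nt, and others lie in long exons before the stop codon in Kif3b, Kif3c, Kif26a and Kif26b.

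Listed shares differed widely between kinds of exon. In internal exons shorter than 400 nt, 2 of 2340 kinesin DRACH adenosines were listed in the cerebellum (0.0855%, 0.0234 to 0.311), with 8 in the cerebrum (0.342%, 0.173 to 0.673), against 0.304% and 0.699% over all coding genes. Internal exons of 400 nt or more had 15 of 391 (3.84%, 2.34 to 6.23) and 28 (7.16%, 5 to 10.2), below the 9.07% and 14.7% over all coding genes, and without Kif3b the cerebellum share was 2.23%. Last exons had 106 of 1485 (7.14%) and 137 (9.23%), against 4.14% and 7.01%. Of the DRACH adenosines under 100 nt from an exon junction, 0.159% and 0.515% were listed, against 7.01% and 9.45% of those at least 100 nt away. Over all coding genes, the shares were 0.56% and 1.15% under 100 nt and 4.57% and 7.68% farther away.

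First exons of kinesin genes had 13 of 190 listed in the cerebellum (6.84%, 4.04 to 11.4), with 18 in the cerebrum (9.47%, 6.08 to 14.5), against 1.56% and 2.93% over all coding genes. These sites were in Kif3c, with 10 and 12, and in Kif26b, with 3 and 5, and the remaining 1 was in Kif5c. All listed 5′ UTR DRACH adenosines of kinesin reference isoforms, 6 in the cerebellum and 10 in the cerebrum, also belonged to Kif3c and Kif26b.

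**Figure D4:**
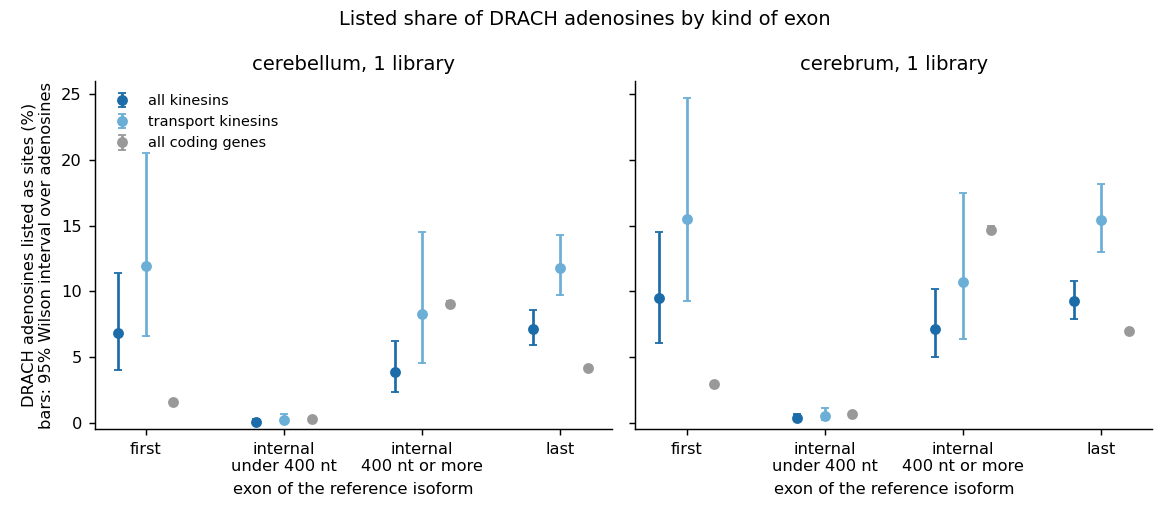
Share of DRACH adenosines listed as sites (vertical axis, in percent) by kind of exon of the reference isoform (horizontal axis), in the cerebellum (left) and cerebrum (right), for all kinesins, transport kinesins and all coding genes. Points are shares and bars 95% Wilson intervals over adenosines; short internal exons are near 0 in all 3 sets, and the last exons of transport kinesins reach 11.8% and 15.4%.

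On the reference isoforms, long internal exons held most listed coding DRACH adenosines, although not in every gene. Sites on other isoforms are not counted here, among them 3 and 6 coding DRACH sites of Kif1bp in a last exon. Of the 24 listed coding DRACH adenosines in the cerebellum, 15 were in internal exons of 400 nt or more, 7 in first exons and 2 in shorter internal exons, and of 44 in the cerebrum the numbers were 28, 8 and 8. Kif3b exon 2, of 1468 nt, had 7 and 10 of 32 DRACH adenosines listed. Kif26b exon 12, of 3415 nt, had 5 and 6 of 57, the 5 being in both libraries. Kif26a exon 12, of 2914 nt, had 0 and 8 of 50. Kif13a exon 37, of 792 nt, had 3 and 2 of 23. Long exons of Kif16b (1344 nt, 30 DRACH adenosines), Kif20b (1234 nt, 26) and Kif24 (2226 nt, 51) had none in either library.

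In the 3 kinesin-2 motor genes Kif3a, Kif3b and Kif3c, aligned codons lie in exons of different length. The start of the Kif3b coding sequence lies in a 1468-nt exon and that of Kif3c in a 2342-nt first exon, while Kif3a encodes the same stretch in exons of at most 274 nt. The proteins were aligned, and DRACH adenosines at the same place of aligned codons were paired. Of 19 such pairs of Kif3a and Kif3b, 17 fell in exon 2 of Kif3b, where 9 of the Kif3b adenosines and 1 of the Kif3a adenosines were listed in at least 1 library. The aligned residues of the proteins were 52.9% identical. The 5-mer was the same in 6 of these 19 pairs, so most pairs differed in motif as well as in exon. Of 17 pairs of Kif3a and Kif3c, 13 fell in the first exon of Kif3c, with 3 listed in Kif3c and 1 in Kif3a, at different codons, and the 5-mer was the same in 5 pairs. The parts of exon, motif and coverage in these differences were not tested. Of 19 pairs of Kif3b and Kif3c, with 66.8% identity, 7 were listed in Kif3b and 2 in Kif3c, and these 2 were among the 7.

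**Figure D5:**
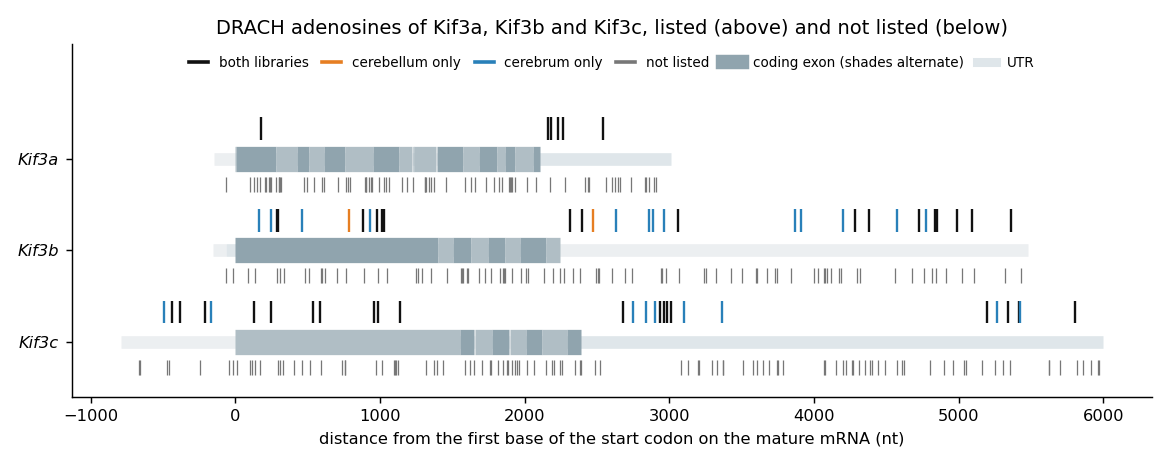
DRACH adenosines of the Kif3a, Kif3b and Kif3c reference isoforms as distance in nt from the first base of the start codon (horizontal axis), with coding exons as thick bars of alternating shade and UTRs as thinner bars. Ticks above each gene are adenosines listed in both libraries (black), the cerebellum alone (orange) or the cerebrum alone (blue), and grey ticks below are not listed; in Kif3b and Kif3c the listed coding adenosines lie in the single long coding exon, and Kif3a has 1 listed coding adenosine.

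The first sequences below are the first pair along the proteins that was listed in both libraries in Kif3b and in neither in Kif3a, and here the 5-mer is the same in both genes. The next 3 are the codon at which Kif3b and Kif3c were both listed in both libraries and Kif3a in neither. The DRACH 5-mer is in capitals, and coordinates are GRCm38, plus strand.
Kif3a, codon 100, chr11:53578853-53578873, not listed: ttgcatatGGACAgactggga
Kif3b, codon 96, chr2:153316558-153316578, listed in both: ttgcctatGGACAaacaggaa
Kif3a, codon 299, chr11:53583944-53583964, not listed: ccgtatcgGAACTccaaactg
Kif3b, codon 294, chr2:153317151-153317171, listed in both: ccatatagAGACTcaaagctg
Kif3c, codon 321, chr12:3366932-3366952, listed in both: ccctaccgGGACTccaagcta

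The Kif3a codon 100 adenosine lies in a 145-nt exon and that of codon 299 in a 198-nt exon. The 1 listed coding adenosine of Kif3a was at codon 60 in its 274-nt exon 2, in both libraries. The other paralogue sets had fewer listed coding pairs. In Kif26a and Kif26b, 16 DRACH pairs were aligned, of which 2 were listed in Kif26b and 0 in Kif26a. In 59 pairs of Kif1a and Kif1b, 2 were listed in Kif1b and 0 in Kif1a. In 38 pairs of Kif21a and Kif21b, 1 was listed in Kif21b and 0 in Kif21a. The 3 comparisons within kinesin-1 had 1 listed pair member each.

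The DRACH share of kinesin sites was 67.8% in the cerebellum (156 of 230, 61.5 to 73.5), and 50.7% in the cerebrum (231 of 456, 46.1 to 55.2), against 63.2% and 47.5% over all coding genes. The regions differed in direction. In 3′ UTRs it was 83.6% (76.4 to 88.9) and 70.6% (64.1 to 76.3), against 76.5% and 65.6%. In the coding sequence it was lower than over all coding genes, at 56.6% (43.3 to 69) and 46.1% (37.3 to 55.2), against 73.4% and 61%. GGACT and AGACT were the most frequent 5-mers, with 27 sites each in the cerebellum and with 43 and 36 in the cerebrum. In the cerebellum each made up 11.7% of kinesin sites, against 8.27% for GGACT and 8.01% for AGACT over all coding genes. In the cerebrum they made up 9.43% and 7.89%, against 6.37% and 5.77%. Listed shares differed by the base after the C. Of the adenosines followed by CT, 6.13% (4.98 to 7.52) were listed in the cerebellum and 8.02% in the cerebrum. The shares were lower for those followed by CA, at 2.21% (1.6 to 3.04) and 3.5%, and for those followed by CC, at 1.14% (0.702 to 1.84) and 1.71%. For GGACT, 23 and 37 of 230 adenosines were listed, or 10% and 16.1%. Listed shares by motif over all coding genes are not given here, so this order cannot be read as particular to kinesins.

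Sites at the motif were found in the other library more often than sites off it. Of the kinesin DRACH sites in the cerebellum, 84% (77.4 to 88.9) were also in the cerebrum list, against 27% (18.2 to 38.1) of sites at other sequences. Over all coding genes the values were 81.5% and 26.6%. From the longer cerebrum list, 56.7% (50.3 to 62.9) of kinesin DRACH sites and 8.89% (5.83 to 13.3) of the other sites were also in the cerebellum list, against 46% and 7.92%. Intronic sites were 31 in the cerebellum and 91 in the cerebrum, or 13.5% and 20% of kinesin sites, against 17.8% and 26.1% over all coding genes. Of the intronic kinesin sites 19.4% (9.19 to 36.3) and 14.3% (8.54 to 22.9) were at DRACH, against 14.9% and 12.5%. Kif26b had 23 intronic sites over both libraries, Kif1b 18 and Kif5c 17. These genes are 410076, 131375 and 155481 nt long.

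The cerebrum list was longer for kinesins as it was for all genes. Kinesin sites numbered 1.98 times as many in the cerebrum as in the cerebellum, against 2.36 times for all coding genes, and kinesin exonic DRACH sites 1.45 times as many, against 1.72. Counted over both lists, 40.8% (35.9 to 45.9) of the kinesin exonic DRACH entries were from the cerebellum, against 36.7% over all coding genes. Of the 20 members with an exonic DRACH site, 15 had more in the cerebrum, 3 had the same number in both, and 2 had more in the cerebellum, or 10% against 7.71% of all such genes. The 2 were Kif2a, with 5 against 4, and Kif21a, with 3 against 2, each a difference of 1 site.

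Of the 5 members with exonic DRACH sites in the cerebrum and none in the cerebellum, Kif26a, a kinesin without motor activity that acts in enteric nerve development, had the most, and Kif1c, Kif7, Kif20b and Kif27 had 1 or 2. An exonic DRACH site was listed in the cerebellum in 15 of the 20 members with one in either library. Over all coding genes, this was so in 7535 of 10025, a like proportion. Kif26a had 0 of 114 DRACH adenosines listed in the cerebellum, which allows a share of up to 2.63%, and 10 in the cerebrum (8.77%, 4.83 to 15.4), 8 of them in exon 12 and 2 in the 3′ UTR. Its paralogue Kif26b had 21 and 27 of 262 (8.02% and 10.3%). In the Kif26b 3′ UTR, the 9 sites within 1000 nt of the stop codon were in both libraries or in the cerebrum alone, 4 and 5. Of the 12 beyond 1000 nt, 3 were in both, 6 in the cerebellum alone and 3 in the cerebrum alone. Over all members, 12 DRACH adenosines beyond 1000 nt were listed in the cerebellum alone, so Kif26b held 6 of them. This split was chosen after the positions had been seen and was not tested.

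The labels were checked by genes with known regional expression. Of 8 hindbrain genes, 5 had an exonic DRACH site in the cerebellum and 1, Zic1, in the cerebrum. Of 10 forebrain genes, 3 and 10 had one. There were 14 and 30 sites on chromosome Y, and Xist, the noncoding RNA of the inactive X chromosome, had 83 and 80.

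The partners of kinesins also differed from gene to gene. Of 25 such genes outside the family, 15 had an exonic DRACH site in the cerebellum and 19 in the cerebrum, with 3.73% (3.04 to 4.58) and 5.77% (4.9 to 6.79) of 2357 DRACH adenosines listed. Over all coding genes, 34.3% and 44.2% had such a site and 3.07% and 5.24% of DRACH adenosines were listed. The listed share of the partners was thus near that of all genes, and its interval included the all-gene share in both libraries. Among the light chain genes Klc1, Klc2, Klc3 and Klc4, whose products link kinesin-1 to cargo, the only exonic DRACH site was 1 in Klc2 in the cerebrum. These genes have 39, 47, 29 and 34 DRACH adenosines, so few sites could be listed in them. Kifap3, the third subunit of kinesin-2, had 3 of 90 DRACH adenosines listed in each library (3.33%), a lower share than in Kif3b or Kif3c. The mitochondrial adaptors Trak1 and Trak2 had 10 and 13 exonic DRACH sites in the cerebellum and 18 each in the cerebrum. Of their DRACH adenosines, 10.6% and 9.35% were listed in the cerebellum and 20% and 12.9% in the cerebrum. Of Rhot1 and Rhot2, the outer-membrane GTPases that bind them, Rhot1 had 1 such site in the cerebrum and neither had one in the cerebellum. They have 86 and 56 DRACH adenosines. Of the motors outside the rule, Kifc1, a mitotic motor, had 0 sites in both, Kifc2, a neuronal one, had 3 and 7 exonic DRACH sites, and Cenpe, which acts at kinetochores, had 0 and 3 with 227 DRACH adenosines. The genes of dynein, whose motor runs the other way, of dynactin and of the cargo adaptors Bicd1 and Bicd2 had 45 and 63 exonic DRACH sites over 8 genes. Bicd1 had the most of these, with 15 and 19, and Bicd2 had 4 and 10. Over the 8 genes, 4.61% (3.46 to 6.11) and 6.25% (4.9 to 7.95) of 976 DRACH adenosines were listed.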

How the data were processed

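GLORI data of 1 cerebellum and 1 cerebrum library were used. The authors mapped reads to mm10 and to mm10 with PWK bases, used GLORI-tools for site calling, took the union of both site sets and required more than 8 reads and a methylation rate over 0.1; the unit of the deposited files is another one than counts or levels, namely the genomic position and strand of each site. This filter favours well expressed genes. The submitters' processing notes name mm10.

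Here, each position was looked up in GRCm38 and assigned to GENCODE M21 genes (the paper used another release). A site on several isoforms took the region of the longest complete coding one. DRACH adenosines were counted on 1 reference isoform per gene, and 38 of 39 members had one. Proteins were translated from these isoforms and aligned globally (BLOSUM62, gap opening -11, extension -1). Shares have 95% Wilson intervals, and the limit for a count of 0 is 3 over the number of adenosines. No groups were tested, since each tissue had 1 library. The assignment of sites to groups and regions and the counting of shares were tested on sites simulated at the members' own DRACH adenosines. That test did not cover site calling, depth or the choice of isoform. Python 3.11.15, numpy 2.4.6, pysam 0.24.0, Biopython 1.88, samtools 1.23.1 and matplotlib 3.10.9 were used.

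The members, the groups and the partner and marker lists were chosen with earlier results of these data known. Genes described in full were, by rule, the 10 members with the most exonic DRACH sites, mitotic members with such a site, members with more in the cerebellum, the 3 with most intronic sites and the paralogue sets. Alignments, 3′ UTR positions and single exons were chosen after counts had been seen. Alternatives covered the motif, region and isoform rules, the window, the exon length and the members counted.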

Additional observations from a re-analysis of the deposited data

Results flagged for a closer look

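Kif3a had 8 listed positions on its strand in the 5000 nt after its annotated end and in no annotated gene. They were singled out because they lie outside the gene intervals that the counts above use and number more than 3. Of 21951 coding genes, 779 (3.55%) had at least 1 such position and 48 (0.219%) had at least 8. The Kif3a positions lay 35 to 1311 nt past the end, with 3 in the cerebellum, 7 in the cerebrum and 2 in both, and 4 of the 8 were at DRACH. The 2 at 80 and 82 nt lay in a run of A. No other member had such a site within that distance. The 2 in both libraries were a GGACA and a GGACT, at 1069 and 1181 nt, shown with the 5-mer in capitals in GRCm38, plus strand.
chr11:53603026-53603046: aatcaggtGGACAttgttcat
chr11:53603138-53603158: cttctcatGGACTctgtcttc

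Whether these positions belong to Kif3a transcripts was not tested.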

How the results depend on the processing

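Alternatives gave 65 values for 23 results. Of 55 shares, 35 stayed within the 95% interval of the reported share and 20 did not. The 10 numbers of genes or sites, which have no interval, stayed within 1.5 times the reported number. No paired analysis was possible because each tissue has 1 library. With RRACH as the motif, kinesin sites had it in 57.4% of cases (cerebellum) and 43.9% (cerebrum), the order used below. The DRACH share was 75.4% and 59.7% over exonic sites, and 86.8% in each over sites found in both libraries. The 3′ UTR share was 75.7% and 70.3% over DRACH sites, and 73.1% in the cerebrum over sites found in both. Without Kif26b, the listed share of the other kinesins was 0.487% and 1.66%. Over those with an exonic site, Kif26b included, it was 4.63% and 5.79%. That choice drops members without a listed exonic site, so the share cannot fall. Within 400 nt of the stop codon lay 18.5% and 18.9% of sites. With a limit of 200 nt, long internal exons had 2.1% and 4.46% listed, and short ones 0.102% in the cerebrum. Without Kif3b, an alternative chosen after seeing the data, long internal exons had 2.23% in the cerebellum. The cerebellum held 40.8% of exonic DRACH entries. Depth is unknown, so a missing site cannot be read as an unmethylated adenosine, and no alternative replaces replicates.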

Other observations

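On the strand opposite to the members, 14 sites lay inside their intervals, 5 of them from the cerebellum list and 10 from that of the cerebrum, with 1 in both. Genes annotated on that strand held 10, among them 6 of Cdc23, which overlaps Kif20a, and 3 of 1110002L01Rik, which overlaps Kif3c. The other 4 lay in no gene, in Kif15, Kif16b and Kif22, and 3 of them were at DRACH.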
